A study of Mus musculus with 18 samples.

Results

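The EGR and NR4A transcription factors and the genes induced with them were followed across dendritic cells (DCs) at rest, under confinement and after lipopolysaccharide (LPS). The 10 genes were taken by symbol, *Egr1*, *Egr2*, *Egr3*, *Nr4a1*, *Nr4a2*, *Nr4a3*, *Ier2*, *Ier3*, *Ier5* and *Srf*, and were 10 of the 62197 genes in the table of counts. All 10 passed the filter on low counts, which left 17875 genes for testing. Immediate early genes are transcribed without prior protein synthesis, because the factors that switch them on, such as SRF with its ternary complex partners and phosphorylated CREB, are already present in the resting cell. Their transcripts carry short half-lives, so their levels follow recent signalling through the ERK, calcium and cAMP pathways and then decline. In myeloid cells EGR proteins act during macrophage and DC differentiation, and NR4A orphan nuclear receptors are known as inducible regulators of inflammatory gene expression.

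The data were bulk polyA-selected RNA sequencing of mouse bone marrow-derived DCs, with 18 libraries in 6 conditions of 3 libraries each. The study asked how DCs respond to a change of shape and whether that response needs cytosolic phospholipase A2 (cPLA_2_). Values were read counts divided by a factor for each library, called normalized counts here, and the libraries held between 33027230 and 61300021 counted reads with a median of 40950397. Every culture was kept for 10 days in medium with supernatant that contained GM-CSF, from marrow of mice 6 to 8 weeks old.

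Nonconfined cPLA_2_ WT DCs were wild type for cPLA_2_, received no treatment and were collected directly when culture ended. Nonconfined cPLA_2_ KO DCs were handled the same way and carried the knockout. Confined cPLA_2_ WT DCs and confined cPLA_2_ KO DCs were held at a height of 3 µm and collected 4 h after confinement. DCs labelled LPS cPLA_2_ WT and LPS cPLA_2_ KO received 100 ng/ml LPS for 30 minutes, were washed and stayed in the incubator until the following day. The knockout joined floxed *Pla2g4a* alleles with a Cre driven by *Itgax*, so deletion was expected in cells that express CD11c and not in other cells of the culture. The protocol text attached to every sample mentions the LPS pulse, and the groups were taken from the treatment given for each sample. Nonconfined DCs had no sham step of 4 h in a device, so confinement, time and handling cannot be told apart. The time between LPS and collection also differed from that between confinement and collection. The study calls each of these samples a biological replicate. Nothing in the labels says that libraries of a group came from separate mice, so p-values measure only the spread between these samples.

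The genotype labels were checked before any comparison. *Pla2g4a*, the gene for cPLA_2_, had 697, 686 and 770.4 normalized counts in nonconfined cPLA_2_ WT DCs and 548, 542 and 533 in nonconfined cPLA_2_ KO DCs. With confinement it had 1369, 1430.3 and 1321 in cPLA_2_ WT DCs and 923, 871 and 919.5 in cPLA_2_ KO DCs. The libraries labelled LPS cPLA_2_ WT had 1005, 969 and 967 and those labelled LPS cPLA_2_ KO had 1065, 1032 and 1028. Knockout libraries were thus lower than wild type ones without overlap at rest and under confinement, while those labelled LPS cPLA_2_ KO were all slightly above those labelled LPS cPLA_2_ WT. The difference between genotypes was -0.41 (SE 0.06, adjusted p = 0.00019) on the log2 scale in nonconfined DCs and -0.60 (SE 0.06, adjusted p = 3.81e-08) in confined DCs. Much *Pla2g4a* RNA remained in the knockout libraries, and the count of a gene does not show whether its deleted exons were read.

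The Y-linked gene *Ddx3y* separated the genotypes outside LPS, with 0 to 3.05 normalized counts in the 6 cPLA_2_ WT libraries and 874 to 1036 in the 6 cPLA_2_ KO libraries. After LPS it had 1271, 0 and 662 in the libraries labelled cPLA_2_ WT and 2.12, 1476 and 783 in those labelled cPLA_2_ KO. Library 1 labelled LPS cPLA_2_ WT and library 2 labelled LPS cPLA_2_ KO were thus above every cPLA_2_ KO library outside LPS, library 2 labelled LPS cPLA_2_ WT and library 1 labelled LPS cPLA_2_ KO were in the range of cPLA_2_ WT libraries, and library 3 of each label lay between. *Eif2s3y* had 799, 1.83 and 448 in the libraries labelled LPS cPLA_2_ WT and 2.12, 863 and 505 in those labelled LPS cPLA_2_ KO, the same order as *Ddx3y*. *Kdm5d* had 154, 1.83 and 91.4 and 0, 152 and 77.7 in those libraries, and *Uty* had 106, 0 and 70.0 and 0, 98.4 and 60.5. *Xist*, transcribed from the inactive X chromosome, was detected in every library, at 22734 to 33681 in the cPLA_2_ WT libraries and 12153 to 24835 in the cPLA_2_ KO libraries outside LPS. Genotype and sex of the donors cannot be told apart in the nonconfined and confined groups. *Pla2g4a* did not support the labels of library 2 either, at 969 under cPLA_2_ WT and 1032 under cPLA_2_ KO. For LPS the Y-linked genes put the genotype labels of 4 libraries in doubt, so both labels were pooled against both nonconfined groups. The LPS results of the EGR, NR4A and IER genes and *Srf* were also computed without those 4. For the gene lists and the cell type markers, LPS results are given with all LPS libraries only.

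**Figure D1:**
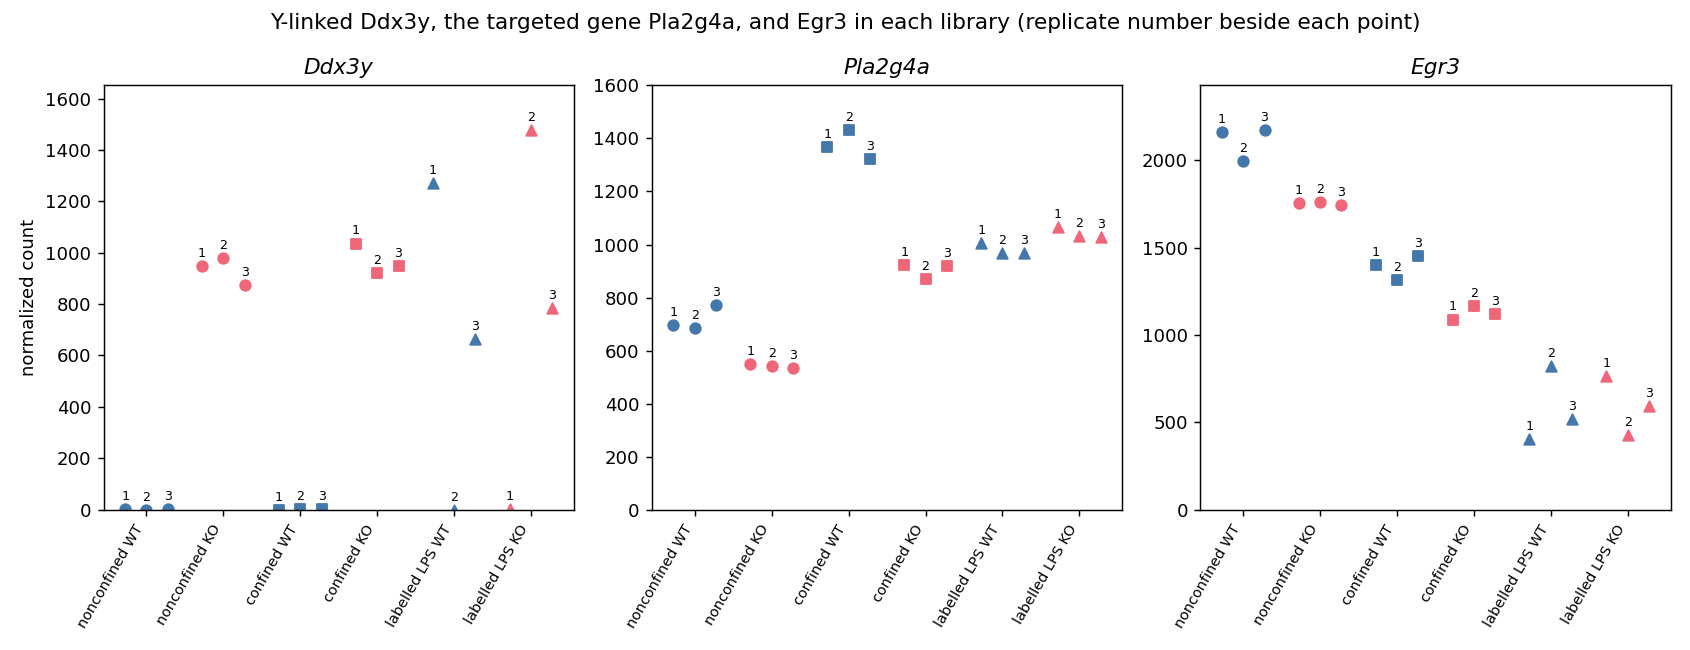
Normalized counts (vertical axes, from 0) of *Ddx3y*, *Pla2g4a* and *Egr3* in the 18 libraries, with the 6 conditions along the horizontal axis, 1 point for each library with its replicate number, blue for the label cPLA_2_ WT and red for cPLA_2_ KO, and circles, squares and triangles for nonconfined, confined and LPS. *Ddx3y* was between 874 and 1036 in cPLA_2_ KO libraries outside LPS and at most 3.05 in cPLA_2_ WT ones. Not every LPS library followed its label, and among the LPS libraries *Egr3* was low where *Ddx3y* was high.

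Markers of the cell types a marrow culture can hold were read in the same libraries. DC markers were present: *Itgax*, which encodes CD11c, ranged from 4194 to 7192 normalized counts, and *Cd74*, the MHC class II invariant chain and the most abundant of the 8, from 189379 to 336000.0. *Zbtb46*, a factor of conventional DCs, ranged from 468 to 1379, whereas *Cd209a* was at 6.17 to 188. The summed level of the 8 DC markers was 427719, 403080.0 and 408163 in nonconfined cPLA_2_ WT DCs and 375686, 348092 and 359310.0 in confined cPLA_2_ WT DCs. In the knockout it was 508981, 477774 and 497416 without and 354043, 340560.0 and 353149 with confinement. Confinement lowered 7 of 8 DC markers in cPLA_2_ WT DCs and 8 of 8 in cPLA_2_ KO DCs, beside 28.4% and 23.4% of all genes tested. In bulk samples fewer cells of a type and less RNA per cell cannot be told apart. The LPS libraries labelled cPLA_2_ WT summed to 587979, 497371 and 532778 and those labelled cPLA_2_ KO to 500624, 576270.0 and 547699.

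Neutrophil markers, led by *S100a9*, moved with both genotype and confinement. Their summed level over 8 genes was 238752, 243828 and 242192 in nonconfined cPLA_2_ WT DCs and 369490.0, 332192 and 357354 in nonconfined cPLA_2_ KO DCs. Under confinement it was 154013, 146804 and 144581 in cPLA_2_ WT DCs and 333025, 346015 and 329985 in cPLA_2_ KO DCs. All 8 fell with confinement in cPLA_2_ WT DCs and 3 of 8 did in cPLA_2_ KO DCs, beside 28.4% and 23.4% of all genes tested. All 8 differed in that response between genotypes, with a positive difference, as did 10.2% of all genes tested. After LPS the sums were 308802, 290063 and 292182 in libraries labelled cPLA_2_ WT and 276705, 312354 and 294381 in those labelled cPLA_2_ KO. Eosinophil markers, led by *Prg2*, summed over 5 genes to 28264, 27979 and 27902 in nonconfined cPLA_2_ WT DCs and 67854, 63451 and 65406 in nonconfined cPLA_2_ KO DCs. Confined cPLA_2_ WT DCs had 7625, 7131 and 7056 and confined cPLA_2_ KO DCs had 16471, 15954 and 16902. These sums were higher in the knockout and lower under confinement, without overlap between any of these 4 groups, but not every marker moved with them. Of the 5, 4 were higher and *Siglecf* was lower in nonconfined cPLA_2_ KO than in nonconfined cPLA_2_ WT DCs, beside 4.78% and 4.11% of all genes tested. Under confinement 3 were higher in cPLA_2_ KO DCs and *Siglecf* and *Ccr3* were lower, beside 18.8% and 20.6%. Confinement lowered 3 and raised *Ccr3* in cPLA_2_ WT DCs, beside 28.4% of all genes tested lower and 28.2% higher. In cPLA_2_ KO DCs it lowered 4 of these markers, beside 23.4%. In the LPS libraries they summed to 39860.4, 23376 and 31545 for the label cPLA_2_ WT and 23170.3, 39434 and 32226 for the label cPLA_2_ KO, in the order of *Ddx3y* within each label.

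Mast cell and basophil markers, 7 genes led by *Cpa3*, summed to 6901 to 7151 in nonconfined cPLA_2_ WT, 10039 to 10509 in nonconfined cPLA_2_ KO, 3446 to 3577 in confined cPLA_2_ WT libraries and 5449 to 5627 in those of confined cPLA_2_ KO DCs, and to 6475 to 7113 after LPS. Macrophage markers, 8 genes led by *Cd14*, a receptor subunit for LPS that many myeloid cells induce, summed to 52599 to 54734, 55230.0 to 58899, 176764 to 185111 and 63376 to 68749 in those groups and to 122672 to 136563 after LPS. Of these 8, *Cd14* alone rose under confinement, by 6.11 in cPLA_2_ WT DCs and 3.05 in cPLA_2_ KO DCs on the log2 scale. Of the others 4 fell in cPLA_2_ WT DCs and 5 in cPLA_2_ KO DCs, beside 28.4% and 23.4% of all genes tested. T cell markers, 6 genes led by *Cd3g*, summed to 2504 to 2573, 2929 to 3231, 802 to 946 and 1074 to 1321 in the same order and to 556 to 619 after LPS, and their defining gene *Cd3e* was at 2.47 to 32.6. By the methods of the study, DCs were taken as the semiadherent cells, apart from loose granulocytes and strongly attached macrophages. The part of these other cell types in the results below was not tested.

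Under confinement, cPLA_2_ WT DCs gained NR4A and lost EGR transcripts. Of the 10 genes, 5 rose and 3 fell at an adjusted p under 0.05, where 28.2% of all genes tested rose and 28.4% fell. With a log2 change above 1 in size as well, 4 were called, *Nr4a1*, *Nr4a2* and *Nr4a3* up and *Egr1* down, beside 19.0% of all genes. In cPLA_2_ KO DCs 4 rose and 3 fell, beside 22.8% and 23.4% of all genes, and the stricter rule called 4 beside 12.0%: *Nr4a1* and *Nr4a2* up, *Egr1* and *Ier2* down. The difference between genotypes, the log2 change in cPLA_2_ KO minus that in cPLA_2_ WT DCs, was called negative for 7 of the 10 and positive for 0, beside 15.6% of all genes negative and 10.2% positive. For *Egr1* the negative sign means a deeper fall in cPLA_2_ KO DCs, and for *Ier2* a fall in cPLA_2_ KO DCs alone. The stricter rule called 4 such differences, *Nr4a1*, *Nr4a2*, *Nr4a3* and *Ier2*, beside 7.67% of all genes. The median log2 change of the 10 was 0.40 in cPLA_2_ WT DCs and -0.10 in cPLA_2_ KO DCs, beside -0.01 and 0.01 over all genes. Both confinement effects enter the difference between genotypes, and comparisons that name the same group share its libraries.

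Scaling every library to the same total instead of the deposited factors put the median log2 change of all genes at -0.23 in the confinement comparison of cPLA_2_ WT DCs, 0.24 in the difference between genotypes, 0.19 for cPLA_2_ KO against cPLA_2_ WT DCs under confinement and -0.46 in the LPS comparison, where it was -0.01, 0.05, 0.04 and 0.02 with the deposited factors. Of the genes called, the share that rose was 49.8% under confinement in cPLA_2_ WT DCs with the deposited factors and 32.7% with equal totals. For the difference between genotypes the share that was higher was 39.5% and 70.7%, for confined cPLA_2_ KO against cPLA_2_ WT DCs 47.7% and 69.7%, and after LPS 52.0% and 26.4%. For confined cPLA_2_ WT DCs against LPS the median went from -0.01 to 0.27 and the share from 45.2% to 75.0%, and for confined cPLA_2_ KO DCs against LPS the median went from 0.03 to 0.46 and the share from 48.2% to 77.2%. Fold changes below use the deposited factors, and those of the 10 genes whose direction turned under equal totals are named. For the gene lists, counts with equal totals follow in a paragraph of their own. The shares of all genes above are the background to each count under confinement and for the difference between genotypes. After LPS that background was 37.2% of all genes higher and 34.3% lower with the deposited factors.

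**Figure D2:**
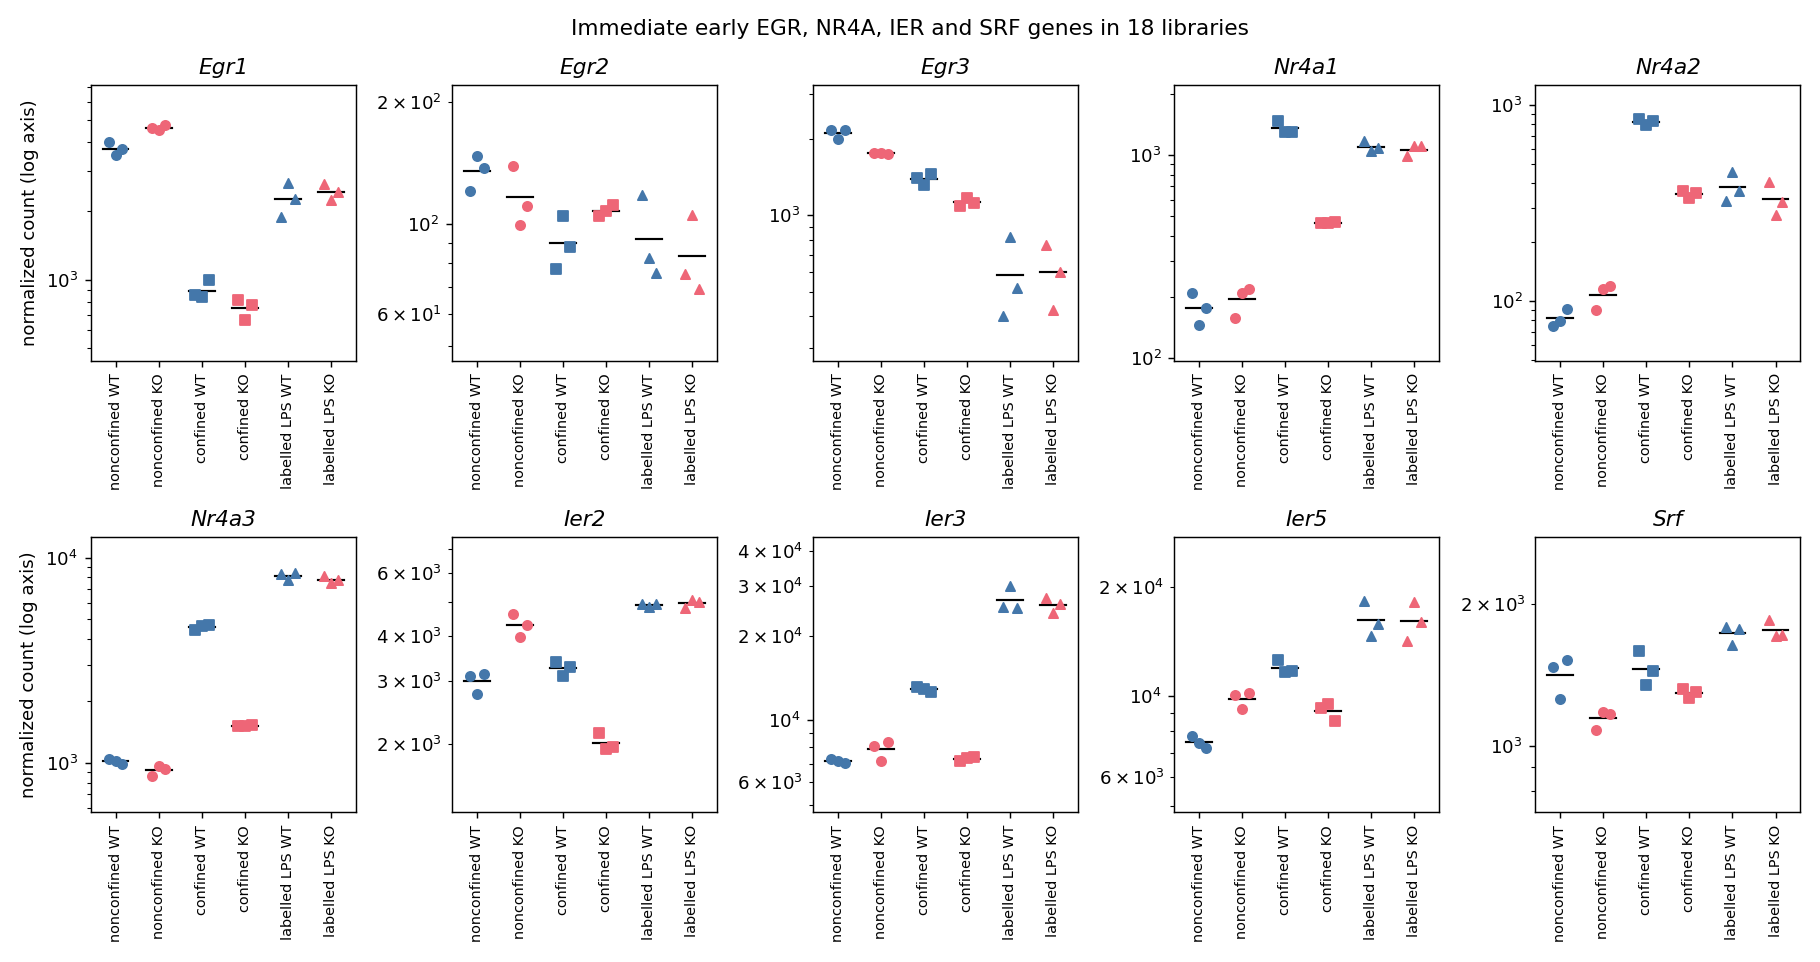
Normalized counts (vertical log axes, each with its own range) of the 10 genes in the 18 libraries, with the 6 conditions along the horizontal axis, 1 point for each library, a black line at each mean, and blue and red for the labels cPLA_2_ WT and cPLA_2_ KO. *Nr4a1*, *Nr4a2* and *Nr4a3* were higher in every confined cPLA_2_ WT library than in every nonconfined cPLA_2_ WT library, with means of 4600.1 and 1019 for *Nr4a3*, and *Egr1* was lower.

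For *Egr1*, a zinc finger factor induced within minutes by growth factors and stress, nonconfined cPLA_2_ WT DCs had 3996, 3509 and 3726 normalized counts and nonconfined cPLA_2_ KO DCs 4624, 4534 and 4759. Confined cPLA_2_ WT DCs had 855, 840.4 and 994 and confined cPLA_2_ KO DCs 811, 663 and 773. After LPS the libraries labelled cPLA_2_ WT had 1877, 2661 and 2256 and those labelled cPLA_2_ KO 2615, 2243 and 2417. Nonconfined libraries were the highest, LPS libraries intermediate and confined libraries the lowest, with no overlap between these 3 states. By the fit *Egr1* fell 4.18-fold with confinement in cPLA_2_ WT DCs, a log2 change of -2.06 (95% CI -2.27 to -1.86, adjusted p = 1.34e-13). In cPLA_2_ KO DCs it fell 6.21-fold, -2.63 (95% CI -2.84 to -2.43, adjusted p = 9.51e-15). The fall was deeper in cPLA_2_ KO DCs, by -0.57 (adjusted p = 0.0042). In the order of the means, confined cPLA_2_ KO, confined cPLA_2_ WT, LPS of either label, nonconfined cPLA_2_ WT and nonconfined cPLA_2_ KO, only the LPS labels overlapped. Confined cPLA_2_ KO libraries were below confined cPLA_2_ WT libraries by -0.26 (adjusted p = 0.0435), a call lost without any 1 of 9 libraries, with values of -0.29 to -0.17: library 3 of nonconfined cPLA_2_ WT, libraries 1 and 3 of nonconfined cPLA_2_ KO and of confined cPLA_2_ WT, libraries 2 and 3 of confined cPLA_2_ KO, and library 3 of each LPS label. That call was also lost with equal totals, at -0.10, without a filter and with a replicate block. Nonconfined cPLA_2_ KO libraries were above nonconfined cPLA_2_ WT libraries by 0.31 (adjusted p = 0.0558), which missed the threshold but passed it at 0.31 without library 2 of confined cPLA_2_ KO, library 1 or 2 labelled LPS cPLA_2_ WT, or library 1 or 2 labelled LPS cPLA_2_ KO. Within each LPS label *Egr1* followed *Ddx3y* in reverse, lowest in the library with the most *Ddx3y*. *Egr1* lies on chromosome 18 from 34992876 to 34998034 on the plus strand (GRCm39).

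*Egr2*, a factor known for myelination and for restraint of lymphocytes, was the least abundant of the 3 EGR genes per kb of exons. It had 120.4, 147 and 138 normalized counts in nonconfined cPLA_2_ WT DCs and 139, 99.6 and 111 in nonconfined cPLA_2_ KO DCs. Confined cPLA_2_ WT DCs had 77.3, 105 and 87.7 and confined cPLA_2_ KO DCs 105, 108 and 111, and the LPS libraries ranged from 69.1 to 118. Every neighbour in the order of the 6 means overlapped, from LPS cPLA_2_ KO at 83.2 ± 19.3 (SD, n = 3) to nonconfined cPLA_2_ WT at 135 ± 13.3. Confinement lowered it in cPLA_2_ WT DCs by -0.59 (SE 0.20, adjusted p = 0.0147), a call lost at -0.52 without library 2 of nonconfined cPLA_2_ WT and at -0.49 without library 1 of confined cPLA_2_ WT. In cPLA_2_ KO DCs its change was -0.09 (adjusted p = 0.726), or 0.04 without library 1 of nonconfined cPLA_2_ KO, and the difference between genotypes, 0.49, did not pass the test (adjusted p = 0.214). The gene lies on chromosome 10 from 67371329 to 67378018 on the plus strand.

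For *Egr3*, a close relative that EGR1 can induce, nonconfined cPLA_2_ WT DCs had 2161, 1999 and 2172 normalized counts and nonconfined cPLA_2_ KO DCs 1758, 1764 and 1746. Under confinement the counts were 1398, 1317 and 1452 in cPLA_2_ WT DCs and 1089, 1168 and 1119 in cPLA_2_ KO DCs. LPS libraries had 402, 825 and 519.5 under the label cPLA_2_ WT and 767, 426 and 596 under the label cPLA_2_ KO. Its 4 groups outside LPS did not overlap one another, with each confined group below its nonconfined group and each cPLA_2_ KO group below its cPLA_2_ WT group. The genotypes did not differ by the test at rest, at -0.26 (adjusted p = 0.433), or under confinement, at -0.30 (adjusted p = 0.204), and both values were called when only the conditions compared were fitted. Confinement lowered it by -0.60 (SE 0.18, adjusted p = 0.00736) in cPLA_2_ WT DCs and -0.64 (SE 0.18, adjusted p = 0.00625) in cPLA_2_ KO DCs. The genotypes did not differ in that response by the test, at -0.04 with a 95% CI of -0.57 to 0.50 (adjusted p = 0.937), and that value turned to 0.15 with equal totals. The LPS libraries were the lowest and the most spread, with SDs of 218 and 171 under the labels cPLA_2_ WT and cPLA_2_ KO beside 9.25 to 96.9 in the other groups. The main fit used 1 spread over all 18 libraries, so that of the LPS libraries enters the SE, CI and adjusted p values above. Within each LPS label the values followed *Ddx3y* in reverse: library 1 labelled cPLA_2_ WT and library 2 labelled cPLA_2_ KO, at 402 and 426, had the highest *Ddx3y*, and library 2 labelled cPLA_2_ WT and library 1 labelled cPLA_2_ KO, at 825 and 767, had the lowest. *Egr3* lies on chromosome 14 from 70314766 to 70320063 on the plus strand.

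The 3 EGR genes thus fell in cPLA_2_ WT DCs under confinement, also with equal library totals. Their corepressors moved the other way: *Nab2*, itself an EGR target, rose by 0.67 (SE 0.10, adjusted p = 3.12e-06) and *Nab1* by 0.49 (SE 0.05, adjusted p = 2.32e-08) in cPLA_2_ WT DCs. For cPLA_2_ KO DCs *Nab2* rose by 0.30 (adjusted p = 0.0142) and *Nab1* was at 0.05 (adjusted p = 0.429). Both responses were lower in cPLA_2_ KO DCs, by -0.38 and -0.44, the call for *Nab2* lost with equal totals, at -0.19. *Egr4*, the other gene of the family, was listed at 0 to 1.72 normalized counts and was not tested. Of 10 genes known as EGR1 targets in other cells, *Nab2* among them, 10 rose in cPLA_2_ WT DCs, with a median log2 change of 1.06 beside -0.01 over all genes. The part of EGR1 in the changes of these genes was not tested. In cPLA_2_ KO DCs 8 rose with a median of 0.54, and for 9 of 10 the difference from cPLA_2_ WT DCs was negative. *Vegfa*, an angiogenic growth factor, rose by 3.32 in cPLA_2_ WT DCs and 1.40 in cPLA_2_ KO DCs, and *F3*, which encodes tissue factor, by 3.22 and 1.13. *Thbs1*, encoding thrombospondin, rose by 3.14 and 1.41, and the adhesion gene *Icam1* by 1.52 in cPLA_2_ WT DCs, while in cPLA_2_ KO DCs it was at 0.02 (adjusted p = 0.821), or -0.02 with equal totals. After LPS 9 of these 10 rose, beside 37.2% of all genes, with a median of 1.51 beside 0.02.

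The NR4A genes encode nuclear receptors without a known natural ligand, whose activity is set mainly by their amount. For *Nr4a1*, the receptor also called NUR77, nonconfined cPLA_2_ WT DCs had 209.5, 145 and 175 normalized counts and nonconfined cPLA_2_ KO DCs 157, 209 and 219. With confinement cPLA_2_ WT DCs had 1478, 1305 and 1302 and cPLA_2_ KO DCs 461, 461 and 469. In the LPS libraries the counts were 1175, 1042 and 1078 for the label cPLA_2_ WT and 988, 1103 and 1103 for the label cPLA_2_ KO. Nonconfined groups were low and overlapped, confined cPLA_2_ KO libraries lay close together above them, and LPS and then confined cPLA_2_ WT libraries were higher again without overlap. It rose 7.75-fold in cPLA_2_ WT DCs, 2.95 (SE 0.12, adjusted p = 6.89e-15) on the log2 scale, and 2.39-fold in cPLA_2_ KO DCs, 1.26 (SE 0.12, adjusted p = 2.13e-08). The rise was lower in cPLA_2_ KO DCs by -1.70 (95% CI -2.05 to -1.34, adjusted p = 8.02e-08), so that the log2 change in cPLA_2_ KO DCs was 42.6% of that in cPLA_2_ WT DCs. The gene lies on chromosome 15 from 101164727 to 101172676 on the plus strand.

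For *Nr4a2*, the receptor NURR1 needed for dopamine neurons, nonconfined cPLA_2_ WT DCs had 74.7, 79.3 and 91.4 normalized counts and nonconfined cPLA_2_ KO DCs 90.1, 115 and 119. The confined libraries had 848, 793 and 836 for cPLA_2_ WT and 365, 337 and 359 for cPLA_2_ KO. After LPS the libraries labelled cPLA_2_ WT had 324, 457 and 366 and those labelled cPLA_2_ KO 407, 277 and 319.5. Confined cPLA_2_ WT libraries stood above all others, and confined cPLA_2_ KO libraries overlapped those of LPS. It rose 10.0-fold in cPLA_2_ WT DCs, 3.32 (SE 0.14, adjusted p = 2.33e-14), and 3.27-fold in cPLA_2_ KO DCs, 1.71 (SE 0.14, adjusted p = 3.66e-09). The difference between these responses was -1.62 (95% CI -2.04 to -1.19, adjusted p = 2.61e-06), with the cPLA_2_ KO change at 51.4% of the cPLA_2_ WT one. Within each LPS label it followed *Ddx3y* in reverse as *Egr3* did, with 457 and 407 in the libraries lowest in *Ddx3y* and 324 and 277 in those highest in it. *Nr4a2* lies on chromosome 2 from 56997238 to 57014153 on the minus strand.

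For *Nr4a3*, a receptor known to be needed for the migration of CD103-positive DCs to lymph nodes, nonconfined cPLA_2_ WT DCs had 1046, 1022 and 989 normalized counts and nonconfined cPLA_2_ KO DCs 859, 965 and 929. Confined cPLA_2_ WT DCs had 4441, 4661 and 4698 and confined cPLA_2_ KO DCs 1508, 1517 and 1523. LPS libraries had 8314, 7786 and 8430.1 under the label cPLA_2_ WT and 8099, 7524 and 7815 under the label cPLA_2_ KO. The order was nonconfined cPLA_2_ KO, nonconfined cPLA_2_ WT, confined cPLA_2_ KO, confined cPLA_2_ WT and LPS, and only the LPS labels overlapped. Its rise was 4.51-fold in cPLA_2_ WT DCs, 2.17 (SE 0.05, adjusted p = 5.11e-19), and 1.65-fold in cPLA_2_ KO DCs, 0.73 (SE 0.05, adjusted p = 1.58e-10). It responded less in cPLA_2_ KO DCs by -1.45 (95% CI -1.60 to -1.30, adjusted p = 6.39e-13), and the cPLA_2_ KO change was 33.4% of the cPLA_2_ WT one. *Nr4a3* lies on chromosome 4 from 48045231 to 48086449 on the plus strand. The 3 receptors rose in both genotypes also with equal library totals. Retinoid X receptors pair with NR4A1 and NR4A2 on DNA, and of their genes *Rxra* and *Rxrb* were tested while *Rxrg* was listed at 0 in every library. None of these passed the test in cPLA_2_ WT DCs under limma, at -0.21 and -0.10 (adjusted p = 0.334 and 0.149), but both were called with equal totals, at -0.43 and -0.33. *Rxra*, named after its values were seen, rose by 0.54 in cPLA_2_ KO DCs (adjusted p = 0.0163) and differed between genotypes by 0.75 (adjusted p = 0.0311), opposite in sign to the NR4A genes.

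CREB, its relatives and their coactivators carry cAMP and calcium signals to NR4A promoters. Of 8 such genes 5 rose in cPLA_2_ WT DCs (median 0.35 beside -0.01), and 7 rose in cPLA_2_ KO DCs (median 0.47 beside 0.01). *Crem*, which also encodes the inducible repressor ICER, rose by 2.87 (SE 0.11, adjusted p = 1.77e-15) in cPLA_2_ WT DCs and 1.40 (SE 0.11, adjusted p = 7.62e-10) in cPLA_2_ KO DCs, a difference of -1.47 (adjusted p = 1.38e-07). After LPS *Crem* was at 0.43 (adjusted p = 3.5e-05) with the deposited factors and turned to -0.07 with equal totals. The coactivator gene *Crtc2* rose by 0.84 in cPLA_2_ WT DCs and 0.19 in cPLA_2_ KO DCs, and *Crtc3* by 0.41 and 0.48. *Creb1* rose by 0.42 in cPLA_2_ WT DCs and was at 0.14 in cPLA_2_ KO DCs (adjusted p = 0.122), and its difference of -0.28 (adjusted p = 0.0482) was not called with equal totals, at -0.09. The difference between genotypes was negative for 3 of the 8 and positive for 1, *Crtc1* at 0.71 (adjusted p = 0.00634), named after its values were seen.

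The IER genes respond early to growth factors and stress, and *Ier2* and *Ier5* encode related nuclear proteins. For *Ier2*, nonconfined cPLA_2_ WT DCs had 3104, 2763 and 3141 normalized counts and nonconfined cPLA_2_ KO DCs 4628, 3982 and 4315. Under confinement the counts were 3394, 3098 and 3287 in cPLA_2_ WT DCs and 2154, 1934 and 1965 in cPLA_2_ KO DCs. In the LPS libraries the counts were 4914, 4817 and 4916 for the label cPLA_2_ WT and 4809, 5064 and 4984 for the label cPLA_2_ KO. At rest cPLA_2_ KO libraries were above cPLA_2_ WT ones, and under confinement they were below them, with no overlap either time. In cPLA_2_ WT DCs its change was 0.12 (adjusted p = 0.096), positive with the deposited factors and -0.11 with equal totals, and called by edgeR at 0.15, and the nonconfined and confined libraries overlapped. Under the knockout it fell by 1.09 (SE 0.06, adjusted p = 3.72e-12), so the responses differed by -1.21 (95% CI -1.39 to -1.04, adjusted p = 2.46e-10). *Ier2* lies on chromosome 8 from 85386180 to 85389483 on the minus strand.

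For *Ier3*, also called IEX-1, a regulator of apoptosis and a target of NF-κB, nonconfined cPLA_2_ WT DCs had 7274, 7169 and 7041 normalized counts and nonconfined cPLA_2_ KO DCs 8073, 7134 and 8377. With confinement cPLA_2_ WT DCs had 13157, 12894 and 12632 and cPLA_2_ KO DCs 7159, 7352 and 7368. After LPS the libraries labelled cPLA_2_ WT had 25291, 29996 and 25087 and those labelled cPLA_2_ KO 27224, 24164 and 25959.6. Confined cPLA_2_ WT libraries exceeded the nonconfined ones, confined cPLA_2_ KO libraries stayed within the range of nonconfined libraries, and LPS libraries were the highest. It rose 1.8-fold in cPLA_2_ WT DCs, 0.85 (SE 0.06, adjusted p = 1.94e-10). In cPLA_2_ KO DCs its change was -0.10 (adjusted p = 0.185), called at -0.17 only without library 2 of nonconfined cPLA_2_ KO. The responses differed by -0.95 (95% CI -1.14 to -0.77, adjusted p = 2.87e-08). *Ier3* lies on chromosome 17 from 36131900 to 36133836 on the plus strand.

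For *Ier5*, whose product is known to modulate the heat shock factor HSF1, nonconfined cPLA_2_ WT DCs had 7772, 7448 and 7185 normalized counts and nonconfined cPLA_2_ KO DCs 10096, 9220.4 and 10175. The confined libraries had 12581, 11633 and 11749 for cPLA_2_ WT and 9302, 9541 and 8552 for cPLA_2_ KO. LPS libraries had 18321, 14618 and 15799.7 under the label cPLA_2_ WT and 14179.6, 18152 and 15960.0 under the label cPLA_2_ KO. Confined cPLA_2_ WT libraries were above all nonconfined ones, and confined cPLA_2_ KO libraries overlapped their nonconfined group. The change was 0.68 (SE 0.08, adjusted p = 1.87e-07) in cPLA_2_ WT DCs and -0.11 (adjusted p = 0.287) in cPLA_2_ KO DCs, a difference of -0.79 (95% CI -1.02 to -0.56, adjusted p = 1.15e-05). *Ier5* followed *Ddx3y* directly within each LPS label, as *Nr4a1* did under the label cPLA_2_ WT. *Ier5* lies on chromosome 1 from 154972113 to 154975382 on the minus strand. Of 9 heat shock genes, read as a sign of handling stress, 2 rose and 6 fell in cPLA_2_ WT DCs and 2 rose and 5 fell in cPLA_2_ KO DCs, with medians of -0.39 and -0.27 beside -0.01 and 0.01 over all genes. The inducible chaperone genes *Hspa1a* and *Hspa1b* rose, by 2.64 and 1.86 in cPLA_2_ WT DCs and by 1.83 and 1.31 in cPLA_2_ KO DCs. The constitutive chaperone gene *Hspa8* and the mitochondrial one *Hspd1* fell, by 0.98 and 0.62 in cPLA_2_ WT DCs and by 0.93 and 0.48 in cPLA_2_ KO DCs. The part of handling in any of these values was not tested.

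*Srf* encodes serum response factor, which binds the CArG boxes of many immediate early promoters and, with MRTF coactivators, those of cytoskeletal genes. It had 1466, 1259 and 1518 normalized counts in nonconfined cPLA_2_ WT DCs and 1082, 1177 and 1168 in nonconfined cPLA_2_ KO DCs. Confined cPLA_2_ WT DCs had 1588, 1346 and 1440.3 and confined cPLA_2_ KO DCs 1318, 1260.4 and 1299, and LPS libraries ranged from 1639 to 1854. The spread between conditions was the smallest of the 10, with a highest mean 1.54-fold above the lowest, and LPS libraries were above all others. In cPLA_2_ WT DCs confinement gave 0.05 (adjusted p = 0.62), which turned to -0.18 with equal totals, where it was called (adjusted p = 0.0291), to -0.04 without library 2 of nonconfined cPLA_2_ WT and to -0.02 without library 1 of confined cPLA_2_ WT. In cPLA_2_ KO DCs it gave 0.18 (adjusted p = 0.0462), a call lost without any 1 of 9 libraries, at 0.14 to 0.20: library 1 of nonconfined cPLA_2_ WT, libraries 1 and 3 of nonconfined cPLA_2_ KO, library 3 of confined cPLA_2_ WT, libraries 1, 2 and 3 of confined cPLA_2_ KO, and library 3 of each LPS label. It was also lost with TMM scaling (0.13), equal totals (0.14), no filter (0.18) and edgeR (0.17), and the responses did not differ by the test, at 0.13 (adjusted p = 0.374), but did with equal totals, at 0.32 (adjusted p = 0.0133). *Srf* lies on chromosome 17 from 46857765 to 46867101 on the minus strand.

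Of 5 genes for SRF partners 2 rose and 1 fell in cPLA_2_ WT DCs, beside 28.2% and 28.4% of all genes, and 3 rose and 1 fell in cPLA_2_ KO DCs, beside 22.8% and 23.4%, with medians of 0.18 and 0.26. *Mrtfa*, the coactivator released when actin polymerizes, fell by 0.26 and 0.35, and the ternary complex factor gene *Elk4* rose by 0.21 and 0.26. *Elk1* rose by 0.18 in cPLA_2_ WT DCs (adjusted p = 0.0134) and was at 0.04 in cPLA_2_ KO DCs (adjusted p = 0.574). With equal totals *Elk4*, *Elk1* and *Mrtfb* turned in cPLA_2_ WT DCs, to -0.01, -0.05 and -0.05. *Mrtfb*, named after its values were seen as the single partner whose response differed between genotypes, rose by 1.13 in cPLA_2_ KO DCs and was at 0.18 in cPLA_2_ WT DCs (adjusted p = 0.249), a difference of 0.95 (adjusted p = 0.000362). Of the cytoskeletal targets of SRF 10 of 14 rose in cPLA_2_ WT DCs, and 6 rose and 2 fell in cPLA_2_ KO DCs, with medians of 0.64 and 0.21. The tropomyosin genes *Tpm1* and *Tpm4* rose by 1.15 and 0.74 in cPLA_2_ WT DCs and by 0.41 and 0.17 in cPLA_2_ KO DCs. The actin genes *Actg1* and *Acta2* rose by 0.89 and 0.85 in cPLA_2_ WT DCs and by 0.25 and 1.16 in cPLA_2_ KO DCs. The difference between genotypes was negative for 8 of the 14 and positive for 0, and *Myl9* was too low to be tested. After LPS 12 of 14 rose, beside 37.2% of all genes, with a median of 0.72 beside 0.02 over all genes.

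Most other immediate early genes rose in both genotypes. Of 29, 22 rose and 3 fell in cPLA_2_ WT DCs (median 0.92), and 21 rose and 3 fell in cPLA_2_ KO DCs (median 0.66). The phosphatase gene *Dusp2* rose by 4.80 in cPLA_2_ WT DCs and 1.05 in cPLA_2_ KO DCs, and *Dusp1*, whose product inactivates p38 and JNK, by 3.90 and 1.27. *Gadd45b*, a stress sensor gene, rose by 3.08 and 0.66. *Fosb*, a subunit of AP-1, rose by 3.12 and 3.03, with no difference between genotypes by the test, at -0.09 with a 95% CI of -0.48 to 0.31 (adjusted p = 0.796), or 0.10 with equal totals. Over the 29 the difference between genotypes was negative for 14 and positive for 3. Of 15 genes of the ERK pathway and its feedback inhibitors, 8 rose and 4 fell in cPLA_2_ WT DCs, beside 28.2% and 28.4% of all genes, and 6 rose and 4 fell in cPLA_2_ KO DCs, beside 22.8% and 23.4%, with medians of 0.15 and 0.01. *Dusp4*, for a nuclear ERK phosphatase, rose by 2.72 and 1.45, whereas *Dusp6*, for the cytoplasmic one, fell by 1.03 and 0.56. The kinase gene *Braf* rose by 0.86 and 0.65, and the inhibitor gene *Spred1* by 0.74 in cPLA_2_ WT DCs, with 0.01 in cPLA_2_ KO DCs (adjusted p = 0.946), or -0.03 with equal totals. For these 15 the difference was negative for 3 and positive for 2, *Dusp6* among the latter since it fell less in cPLA_2_ KO DCs. *Ccn1* is counted both here among immediate early genes and among the cytoskeletal targets.

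With equal library totals many counts of the lists differed. Under confinement in cPLA_2_ WT DCs 10 and 0 of 10 EGR1 targets, 9 and 2 of 14 cytoskeletal targets, 20 and 6 of 29 other immediate early genes, 6 and 6 of 15 ERK genes, 4 and 0 of 8 CREB genes, 2 and 7 of 9 heat shock genes and 0 and 1 of 5 SRF partners rose and fell, beside 20.0% and 41.3% of all genes. In cPLA_2_ KO DCs these were 8 and 0, 5 and 2, 19 and 3, 6 and 4, 7 and 0, 2 and 6 and 3 and 1, beside 20.8% and 25.9%. For the difference between genotypes positive and negative values numbered 0 and 5, 0 and 6, 6 and 13, 4 and 3, 4 and 2, 5 and 2 and 2 and 0 in that order, beside 26.5% and 11.0%. After LPS 7 and 3, 8 and 1, 17 and 10, 5 and 7, 2 and 3, 4 and 5 and 0 and 5 rose and fell, beside 20.4% and 56.8%, so that all 5 SRF partners fell where 3 had risen with the deposited factors.

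**Figure D3:**
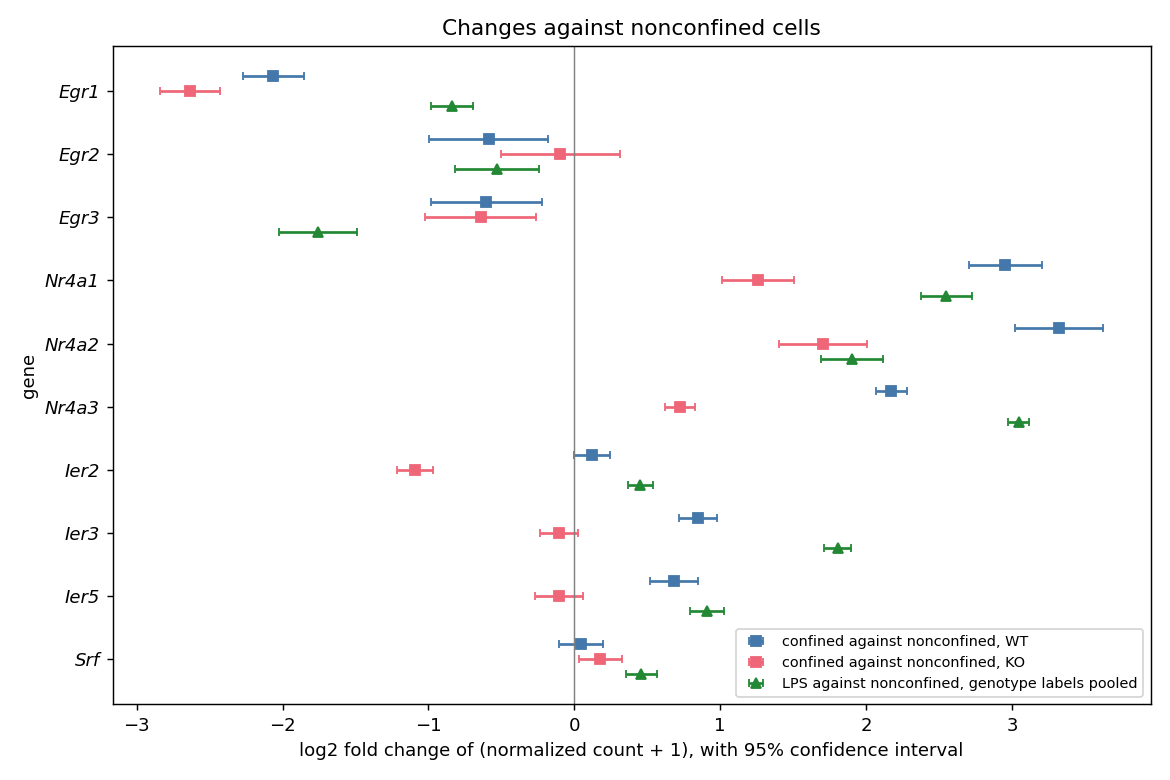
Log2 fold changes (horizontal axis) of the 10 genes (vertical axis) against nonconfined DCs, with bars for 95% confidence intervals, as blue squares for confined cPLA_2_ WT DCs, red squares for confined cPLA_2_ KO DCs and green triangles for LPS with both labels pooled. The NR4A genes were above 0 in all 3 comparisons and nearer to 0 under confinement in the knockout, from 3.32 to 1.71 for *Nr4a2*, and *Egr1* and *Egr3* were below 0, while *Srf* (-0.18 in cPLA_2_ WT, -0.04 after LPS) and *Ier2* (-0.11 in cPLA_2_ WT, -0.04 after LPS) turned with equal library totals.

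At rest, 2 of the 10 were higher and 1 was lower in nonconfined cPLA_2_ KO than in nonconfined cPLA_2_ WT DCs, beside 4.78% and 4.11% of all genes, and the stricter rule, which called 1.15% of all genes, left these 3 out. *Ier2* was higher by 0.52 (SE 0.06, adjusted p = 1.37e-05) and *Ier5* by 0.40 (SE 0.08, adjusted p = 0.00305). *Srf* was lower, at -0.30 (SE 0.07, adjusted p = 0.0103), a call lost without library 1 (-0.28) or library 3 (-0.25) of nonconfined cPLA_2_ WT or library 1 (-0.27) of nonconfined cPLA_2_ KO. Without library 2 of nonconfined cPLA_2_ KO, *Nr4a3* at -0.19 and *Ier3* at 0.20 were called too, and the count ranged from 2 to 5 over single libraries left out. With edgeR and DESeq2 3 were higher and 1 was lower, *Egr1* at 0.32 and 0.31 being the third. With only the conditions compared 4 were called, *Egr1* (0.31) and *Egr3* (-0.26) added and *Srf* lost, with a minimum of 100 counts 5, *Egr1* (0.31) and *Nr4a3* (-0.15) added, and with equal totals *Nr4a3* was added at -0.19. Under confinement 7 were lower in cPLA_2_ KO DCs, beside 20.6% of all genes lower and 18.8% higher, and 3 passed the stricter rule beside 10.1%. Those 3 were *Nr4a1* at -1.55 (SE 0.12, adjusted p = 7.44e-10), *Nr4a2* at -1.22 (SE 0.14, adjusted p = 5.83e-07) and *Nr4a3* at -1.60 (SE 0.05, adjusted p = 1.36e-16). *Ier3* at -0.82, *Ier2* at -0.69 and *Ier5* at -0.39 were lower as well, with every confined cPLA_2_ KO library below every confined cPLA_2_ WT library for each of these 6. *Srf* at -0.17 (adjusted p = 0.0634) was called without library 2 of nonconfined cPLA_2_ WT (-0.17) or library 2 of confined cPLA_2_ WT (-0.23). It was also called by edgeR (-0.20) and DESeq2 (-0.19), with a replicate block, a minimum of 100 counts or only the conditions compared (-0.17 each), and was at -0.02 with equal totals. In the same confined cPLA_2_ KO libraries 8 of 8 neutrophil markers were higher, and of 5 eosinophil markers 3 were higher and 2 lower, and their part in these differences was not tested.

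LPS, pooled over both labels, raised the NR4A and IER genes over nonconfined DCs and lowered the EGR genes, with the exception that *Ier2* turned with equal totals. With the deposited factors all 10 passed the test, 7 rose and 3 fell, beside 37.2% and 34.3% of all genes, and 5 passed the stricter rule beside 29.0%: *Nr4a1*, *Nr4a2*, *Nr4a3* and *Ier3* up and *Egr3* down. *Nr4a3* rose 8.26-fold, 3.05 (SE 0.04, adjusted p = 7.24e-25), and *Nr4a1* 5.86-fold, 2.55 (SE 0.08, adjusted p = 5e-17). *Nr4a2* rose by 1.91 (SE 0.10, adjusted p = 2.58e-13) and *Ier3* by 1.81 (SE 0.04, adjusted p = 2.71e-19). *Egr3* fell 3.38-fold, -1.76 (SE 0.13, adjusted p = 5.2e-11), *Egr1* changed by -0.84 and *Egr2* by -0.53. *Ier5* rose by 0.91, while *Ier2* at 0.45 and *Srf* at 0.46 rose with the deposited factors and were both at -0.04 with equal totals. Without the 4 LPS libraries in doubt the count was again 10, with *Nr4a3* at 2.98, *Nr4a1* at 2.54, *Nr4a2* at 1.91, *Ier3* at 1.84, *Ier5* at 0.93, *Ier2* at 0.46, *Srf* at 0.40, *Egr2* at -0.41, *Egr1* at -0.77 and *Egr3* at -1.70. Of the other immediate early genes 22 of 29 rose and 6 fell (median 1.08), of the ERK genes 10 of 15 rose and 4 fell (median 0.28), and of the CREB genes 5 of 8 rose and 3 fell (median 0.43). Both *Nab* genes rose, 3 of 5 SRF partners rose and 0 fell, both tested *Rxr* genes fell, and of the heat shock genes 6 of 9 rose and 2 fell. *Dusp2* rose by 5.26 and *Icam1* by 2.78, and *Fosb* rose by 0.91. Markers of the cell types moved in this comparison too: 5 and 2 of 8 DC, 3 and 5 of 8 macrophage, 4 and 3 of 8 neutrophil, 1 and 6 of 7 mast cell and basophil, 0 and 5 of 5 eosinophil and 2 and 3 of 6 T cell markers rose and fell, and their part in these changes was not tested.

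Between the LPS libraries labelled cPLA_2_ KO and those labelled cPLA_2_ WT, limma called 0 of the 10 and 0 of 17875 genes, beside a background of 0% up and 0% down. At an unadjusted p under 0.05 there were 890 genes by limma, 812 by edgeR and 831 by DESeq2, and the latter tools also called 0 after adjustment. With the 4 libraries in doubt left out, library 2 of each label remained, and limma took their spread from the other groups. It then called 3 of the 10: *Egr3* at -0.95 (adjusted p = 7.68e-06), *Ier3* at -0.31 (adjusted p = 0.0369) and *Ier5* at 0.31 (adjusted p = 0.0491). Over all genes 2.37% were then higher and 2.55% lower. With all 6 libraries these were 0.06, -0.05 and -0.01, so the direction turned for *Egr3* and *Ier5*, as it also did without library 1 of either label. *Ier3* turned to 0.03 without library 2 labelled cPLA_2_ WT.

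Confined DCs and LPS DCs were also set side by side, although they were collected at different times after the stimulus. Of the 10 genes 3 were higher and 6 lower in confined cPLA_2_ WT DCs than after LPS, beside 24.5% and 29.8% of all genes. *Egr3* was higher by 1.29 (SE 0.16, adjusted p = 4.91e-07), *Nr4a2* by 1.22 (SE 0.13, adjusted p = 3.86e-08) and *Nr4a1* by 0.33 (SE 0.10, adjusted p = 0.0102). The *Nr4a1* call was lost without library 1 of confined cPLA_2_ WT, at 0.27, and without the 4 LPS libraries in doubt, at 0.34 (adjusted p = 0.0538), which left 8 called. *Egr1* at -1.38, *Ier3* at -1.02, *Nr4a3* at -0.80, *Ier2* at -0.59 and *Ier5* at -0.43 were lower, as was *Srf* at -0.26, which turned to 0.03 with equal totals. The stricter rule called 4 beside 14.8% of all genes, *Egr3* and *Nr4a2* higher and *Egr1* and *Ier3* lower. The *Ier5* call was lost with equal totals, at -0.14. In confined cPLA_2_ KO DCs 1 was higher, *Egr3* at 0.98, and 7 were lower, beside 30.3% and 32.5% of all genes, with 8 called without the 4 libraries too, and the stricter rule called 5, all lower, beside 23.6%. The lower ones were led by *Nr4a3* at -2.40, *Ier3* at -1.85 and *Egr1* at -1.64, followed by *Ier2* at -1.29, *Nr4a1* at -1.22 and *Ier5* at -0.82. *Srf* at -0.43 was lower with the deposited factors and at 0.01 with equal totals, and *Nr4a2* at -0.00 (adjusted p = 0.998) was at 0.44 with equal totals, where it was called, and at 0.03 without library 2 of confined cPLA_2_ KO, 0.07 without library 2 labelled LPS cPLA_2_ WT and 0.08 without library 1 labelled LPS cPLA_2_ KO. *Egr2* at 0.32 (adjusted p = 0.104) was called at 0.42 without library 1 labelled LPS cPLA_2_ WT and at 0.41 without library 2 labelled LPS cPLA_2_ KO, and it was called at 0.76 with equal totals.

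Levels of different genes were compared as mean normalized counts per kb of annotated exons. On that scale *Ier3* was the highest of the 10 in every condition, at 6287 ± 102 (SD, n = 3) in nonconfined cPLA_2_ WT, 11321 ± 231 in confined cPLA_2_ WT DCs and 6403 ± 102 in confined cPLA_2_ KO DCs, and *Ier5* and *Ier2* followed it. *Nr4a2* was the lowest per kb in nonconfined DCs, at 9.97 ± 1.05 in cPLA_2_ WT and 13.2 ± 1.94 in cPLA_2_ KO. *Egr2* was the lowest in the confined and LPS groups, at 26.4 ± 4.05 per kb in confined cPLA_2_ WT DCs. *Egr1* and *Nr4a3* exchanged ranks 4 and 7: per kb *Egr1* went from 833 ± 54.3 in nonconfined to 199 ± 18.8 in confined cPLA_2_ WT DCs, and *Nr4a3* from 170.2 ± 4.84 to 768 ± 23.2. In confined cPLA_2_ KO DCs *Nr4a3* had 253 ± 1.21 per kb, between *Srf* at 293 ± 6.59 and *Egr3* at 239 ± 8.45.

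The genes whose log2 values were most like those of 5 of the 10 were taken from 10554 genes, by Pearson's r over the 18 libraries, which share their conditions. Closest to *Egr1* were *Tmem268* (r = 0.977), *Snd1* (r = 0.976) and *Tcf7* (r = 0.973). *Tcf7*, for a T cell and progenitor factor, had means of 787 in nonconfined and 101 in confined cPLA_2_ WT DCs. *Egr2* had weaker matches, *Gatb* (r = 0.856), *Mrm2* (r = 0.844) and *Dph2* (r = 0.839). The closest to *Nr4a1* were *Flrt3* (r = 0.993), *Gtpbp2* (r = 0.992) and *Cd14* (r = 0.992). *Cd14* had means of 1899 in nonconfined cPLA_2_ WT, 131510.0 in confined cPLA_2_ WT DCs and 16429 in confined cPLA_2_ KO DCs. *Nr4a3* was matched by *St3gal1* (r = 0.998), *Acpp* (r = 0.998) and *Acod1* (r = 0.998). *Acod1*, for the enzyme that makes itaconate, had means of 3177, 63387 and 8996 in those groups. *Ier3* was matched by *Bcl2a1a* (r = 0.996), *Bcl2a1d* (r = 0.996) and *Rasa4* (r = 0.995), the BCL2A1 genes encoding inhibitors of apoptosis. Among the 10 themselves r was 0.950 for *Nr4a3* with *Ier3*, 0.928 for *Nr4a1* with *Nr4a3*, 0.913 for *Nr4a1* with *Nr4a2* and 0.724 for *Nr4a2* with *Nr4a3*, and 0.205 for *Egr1* with *Egr3*.

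The 3 NR4A genes rose and the EGR genes fell under confinement in cPLA_2_ WT DCs. Promoter windows were therefore searched for the sites of factors known to act on immediate early genes. For each gene with sites of CREB, SRF or NF-κB, 1 window is printed. The windows run from 250 bases before to 50 bases after a transcript start and come from RefSeq in the build GRCm38.p6, an earlier build than that of the counts. Of the 10 genes 7 had windows, *Egr2* with 5 and the others with 1 each, and *Egr1*, *Egr3* and *Ier2* had no entry. Each sequence is written 5′ to 3′ on the strand of the gene, and positions count from 1 at its first base. Capitals mark the CRE half-site, TGACG or its reverse complement, in the windows of *Nr4a1* (chr15:101266596-101266895 on the plus strand), *Nr4a2* (chr2:57123954-57124253 on the minus strand) and *Nr4a3* (chr4:48045055-48045354 on the plus strand). They mark the CArG box, to which SRF binds, in the window of *Srf* (chr17:46556113-46556412 on the minus strand) and the third window of *Egr2* (chr10:67537619-67537918 on the plus strand), and the κB site in that of *Ier3* (chr17:35821463-35821762 on the plus strand).

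Nr4a1: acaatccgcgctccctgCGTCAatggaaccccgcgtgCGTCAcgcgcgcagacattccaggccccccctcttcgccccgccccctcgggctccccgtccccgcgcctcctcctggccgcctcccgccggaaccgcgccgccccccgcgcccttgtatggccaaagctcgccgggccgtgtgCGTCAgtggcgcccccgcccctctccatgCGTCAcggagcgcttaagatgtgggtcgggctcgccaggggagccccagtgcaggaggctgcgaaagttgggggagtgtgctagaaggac

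Nr4a2: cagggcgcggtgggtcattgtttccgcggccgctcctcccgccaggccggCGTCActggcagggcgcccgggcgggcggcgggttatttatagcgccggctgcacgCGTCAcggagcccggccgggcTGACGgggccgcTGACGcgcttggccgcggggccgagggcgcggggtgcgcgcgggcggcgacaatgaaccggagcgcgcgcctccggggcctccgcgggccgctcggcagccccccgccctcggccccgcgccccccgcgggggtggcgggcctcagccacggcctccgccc

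Nr4a3: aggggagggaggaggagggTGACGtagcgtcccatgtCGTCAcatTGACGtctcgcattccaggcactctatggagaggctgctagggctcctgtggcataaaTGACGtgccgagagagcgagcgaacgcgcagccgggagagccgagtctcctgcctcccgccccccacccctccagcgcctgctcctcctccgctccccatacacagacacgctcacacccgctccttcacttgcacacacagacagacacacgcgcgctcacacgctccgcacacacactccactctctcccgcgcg

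Srf: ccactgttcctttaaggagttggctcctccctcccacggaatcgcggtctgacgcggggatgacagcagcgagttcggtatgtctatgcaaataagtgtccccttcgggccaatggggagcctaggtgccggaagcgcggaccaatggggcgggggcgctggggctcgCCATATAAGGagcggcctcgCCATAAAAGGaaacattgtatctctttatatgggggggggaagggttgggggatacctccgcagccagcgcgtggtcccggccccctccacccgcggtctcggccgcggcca

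Egr2: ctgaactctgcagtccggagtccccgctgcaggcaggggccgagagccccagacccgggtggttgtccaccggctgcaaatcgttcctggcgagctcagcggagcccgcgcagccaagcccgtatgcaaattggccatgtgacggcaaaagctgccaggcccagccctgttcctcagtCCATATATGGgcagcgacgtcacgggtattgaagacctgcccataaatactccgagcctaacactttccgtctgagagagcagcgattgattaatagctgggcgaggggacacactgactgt

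Ier3: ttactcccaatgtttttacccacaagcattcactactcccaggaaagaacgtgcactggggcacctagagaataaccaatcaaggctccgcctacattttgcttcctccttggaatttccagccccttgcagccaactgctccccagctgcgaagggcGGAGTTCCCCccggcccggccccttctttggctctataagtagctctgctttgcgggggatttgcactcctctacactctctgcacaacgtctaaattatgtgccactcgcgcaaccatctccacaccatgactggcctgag

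Both strands of the windows were searched, and 32851 RefSeq windows of the same length gave the background. The half-site TGACG, a part of the full CRE TGACGTCA, was found 4 times each for *Nr4a1*, *Nr4a2* and *Nr4a3*, 2 times each in 3 of the 5 *Egr2* windows and 1 time for *Srf*. Of all windows 20.8% hold it at least 1 time. The shares given here count windows with at least 1 match, so they are no background to the number of matches in a window. The full CRE, held by 1.79% of windows, was not found in those of the 7 genes. A CArG box was found 2 times for *Srf* (169 to 178 and 189 to 198) and 1 time in 4 of the 5 overlapping or neighbouring *Egr2* windows (179 to 188 in the one printed), beside 1.63% of all windows. The EGR site GCGNGGGCG was found 1 time each for *Nr4a1* (191 to 199), *Nr4a2* (177 to 185) and *Srf* (150 to 158), beside 5.55%. The κB site was found 1 time each for *Ier3* (159 to 168) and *Nr4a1* (248 to 257), beside 4.51%. The NR4A site AAAGGTCA (1.51% of windows) and the AP-1 site TGANTCA (7.81%) were not found in the windows of the 7 genes, and that of *Ier5* held none of the motifs searched. A match is a description of the letters in a window.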

How the data were processed

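RNA was sequenced from 18 libraries of bone marrow-derived DCs, 6 conditions of 3. By the processing notes of the submitters, reads were aligned with STAR 2.7.5a to mm39 (GRCm39) and counted with featureCounts 1.5.0, and DESeq2 in R 3.5.3 followed; the methods name FAST DB as the annotation. The deposited signal is normalized counts, which the authors divided by a factor for each library. Multiplied by a recovered factor, 100% of values were whole within 0.0001, with a largest deviation of 2.68e-09. All 18 columns matched a sample, leaving 0 unused. The filter kept the 17875 of 62197 genes that reached 10 normalized counts in 3 or more libraries, which were tested with limma 3.58.1 in R 4.3.3 on log2(normalized count + 1), with 1 mean for each condition, trend in the prior variance, two-sided tests and Benjamini-Hochberg adjustment over all of them. Fold changes are on that scale, and a call needs an adjusted p under 0.05. The method was tested on simulated data.

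Members, gene lists and cell type markers were chosen with earlier results of these data known. The result for 1 set of cell type markers is not reported here. Named were all members and, from each list, up to 4 genes with the largest change among those called under confinement in wild type DCs, with a mean of at least 100. For 5 members the 3 genes most like them were named. Alternatives were pseudocounts of 0.5 and 5, no filter and a minimum of 100, equal library totals, TMM scaling, edgeR 4.0.16 and DESeq2 1.42.0 on recovered reads, only the conditions compared, a replicate block, an absolute log2 fold change above 1, single LPS labels and each library left out. Leaving out 4 LPS libraries was chosen after seeing the data. Under confinement in wild type DCs limma called 5038 genes up and 5075 down, edgeR 5283 and 4819, and DESeq2 5219 and 5048.

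Gene positions are those of the deposited table, and exon lengths and overlaps come from GENCODE vM39. On the same strand Gm56721 overlaps Nr4a1, Gm69473 overlaps Ier5 and Mir6976 lies within Srf. On the other strand Gm66196 overlaps Egr2, Gm63180 and Gm63176 overlap Nr4a1, Gm68858 overlaps Nr4a3, Gm66231 overlaps Ier3 and Gm65094 overlaps Srf. The library kits were stranded, and the strand used in counting is not given in the sources used here.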

Additional observations from a re-analysis of the deposited data

Results flagged for a closer look

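In each case the confinement effect differed between genotypes by the test of the difference itself, given here as the log2 change in cPLA_2_ KO minus that in cPLA_2_ WT DCs. Looked at were the 10 factors, the list genes named for the size of their change in cPLA_2_ WT DCs, and Rxra, Mrtfb and Crtc1, named after their values were seen. That test was met by 30 genes, 26 with a negative and 4 with a positive value. Of the 10 factors 7 met it, all with a negative value, beside 15.6% of all genes lower and 10.2% higher. The other genes were named by their values, so their number is no share to set beside these. Change in cPLA_2_ WT DCs enters the difference, so naming genes by it favours values opposite in sign to that change, and the split is no measure of the lists. Over whole lists, negative and positive values numbered 9 and 0 of 10 EGR1 targets, 8 and 0 of 14 cytoskeletal targets, 14 and 3 of 29 other immediate early genes, 3 and 2 of 15 ERK genes, 3 and 1 of 8 CREB genes, 2 and 0 of 9 heat shock genes, 2 and 0 of 2 EGR corepressors, 0 and 1 of 5 SRF partners and 0 and 1 of 2 retinoid X receptors. With equal library totals these were 5 and 0, 6 and 0, 13 and 6, 3 and 4, 2 and 4, 2 and 5, 1 and 0, 0 and 2 and 0 and 2, and Nab2 (-0.19) and Creb1 (-0.09) no longer met the test. No cause was tested.

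Among the factors, Egr1 differed by -0.57. The NR4A genes differed by -1.70 for Nr4a1, -1.62 for Nr4a2 and -1.45 for Nr4a3. The IER genes differed by -1.21 for Ier2, -0.95 for Ier3 and -0.79 for Ier5.

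Rxra differed by 0.75 and Mrtfb by 0.95. The EGR corepressor genes differed by -0.38 for Nab2 and -0.44 for Nab1. EGR1 targets differed by -1.92 for Vegfa, -2.09 for F3, -1.74 for Thbs1 and -1.50 for Icam1. Cytoskeletal targets of SRF differed by -0.74 for Tpm1, -0.65 for Actg1 and -0.57 for Tpm4.

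Other immediate early genes differed by -3.75 for Dusp2, -2.63 for Dusp1 and -2.42 for Gadd45b. In the ERK pathway Dusp4 differed by -1.26 and Spred1 by -0.73, while Dusp6, which fell less in cPLA_2_ KO DCs, differed by 0.47. CREB genes differed by -1.47 for Crem, -0.65 for Crtc2 and -0.28 for Creb1 and 0.71 for Crtc1, and the heat shock genes by -0.80 for Hspa1a and -0.54 for Hspa1b.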

How the results depend on the processing

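Of 2650 log2 fold changes recomputed, 2519 kept their direction and side of the threshold, 64 no longer passed it, 29 newly passed it and 38 turned in direction. Of 990 recomputed list counts, 123 moved by more than 1.5 times, 70 of them with a log2 change above 1 required and 20 with equal library totals, then 8 with no filter, 6 by edgeR, 5 by DESeq2, 4 each with TMM scaling, a replicate block and only the conditions compared, and 2 with a minimum of 100. Equal totals changed the number called from 9 to 5 of 10 EGR1 targets, 2 to 7 of 9 heat shock genes, 1 to 2 of 5 SRF partners, 1 to 2 of 2 retinoid X receptors and 2 to 1 of 2 EGR corepressors for the difference between genotypes, from 3 to 1 SRF partners and 0 to 2 retinoid X receptors under confinement in cPLA_2_ WT DCs, and from 3 to 5 SRF partners and 8 to 5 of 8 CREB genes after LPS. For the difference between genotypes no filter also left 1 EGR corepressor and 0 retinoid X receptors called, and TMM scaling and a replicate block each left 1 EGR corepressor. With a log2 change above 1 required, the members called were 4 under confinement in cPLA_2_ WT DCs, 4 in cPLA_2_ KO DCs, 4 for the difference between them, 0 between genotypes at rest by limma, 3 between genotypes under confinement, 5 after LPS, 4 for confined cPLA_2_ WT DCs against LPS, beside 14.8% of all genes, and 5 for confined cPLA_2_ KO DCs against LPS, beside 23.6%, since this rule asks for more. With a minimum of 100 normalized counts, 5 were called between genotypes at rest; the cause was not tested. With a replicate block the counts were 8, 7, 7, 3, 7 and 10 for confinement in each genotype, their difference, genotype at rest, genotype under confinement and LPS. Leaving out single libraries gave 7 to 8, 6 to 8, 7 to 7, 2 to 5, 6 to 8 and 10 to 10 in the same order, 0 to 0 between LPS labels by limma, and 8 to 9 for each confined genotype against LPS. With equal library totals Srf turned to -0.18 and Ier2 to -0.11 under confinement in cPLA_2_ WT DCs, Srf to -0.036 and Ier2 to -0.043 after LPS, Egr3 to 0.15 for the difference between genotypes, Srf to 0.0255 for confined cPLA_2_ WT and 0.0096 for confined cPLA_2_ KO DCs against LPS, and Nr4a2 to 0.44 for confined cPLA_2_ KO DCs against LPS; the cause was not tested. Nr4a2 in that comparison was also at 0.021 with TMM scaling, 0.026 by edgeR and 0.008 by DESeq2, and Srf under confinement in cPLA_2_ WT DCs at -0.0011 with TMM scaling; the cause was not tested. Without the 4 LPS libraries in doubt, 1 library of each LPS label remained, so no call is given between labels. Between these, Egr3 turned to -0.95, Ier5 to 0.31, Egr1 to -0.25, Egr2 to 0.35 and Nr4a1 to 0.083. Egr2 turned to -0.062 for confined cPLA_2_ WT DCs against LPS. The cause was not tested. Over single libraries left out, values turned for Srf under confinement in cPLA_2_ WT DCs (-0.036 to 0.10), Egr2 under confinement in cPLA_2_ KO DCs (-0.20 to 0.038), Egr2 for confined cPLA_2_ WT DCs (-0.061 to 0.15) and Nr4a2 for confined cPLA_2_ KO DCs against LPS (-0.064 to 0.075), and, between LPS labels, Egr1 (-0.018 to 0.23), Egr2 (-0.32 to 0.052), Egr3 (-0.18 to 0.34), Nr4a1 (-0.082 to 0.0080), Ier3 (-0.097 to 0.032), Ier5 (-0.10 to 0.076) and Srf (-0.013 to 0.048); the cause was not tested. What depth limits was not compared between members; Egr2 had 69.1 to 147 normalized counts over all libraries, and Nr4a2 had 74.7 to 91.4 in nonconfined cPLA_2_ WT DCs.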
